A study of Homo sapiens with 4 samples.

Results

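The 33 genes described here encode the enzymes and carriers that take glucose to pyruvate and pyruvate to lactate or into the mitochondrion. They were chosen by gene symbol, and each symbol matched 1 of the 61806 genes in the deposited table. All 33 passed the filter on low counts and were among the 14717 genes tested. The RNA came from JJ012, an established line of human chondrosarcoma, a malignant tumour of cartilage-forming cells. The line is wild type per the labels, and every library came from it. The 4 libraries were bulk RNA-seq of untreated cells (2 libraries) and of cells given Antcin K, a triterpenoid of the fungus Antrodia cinnamomea, at 10 µM for 24 h (2 libraries). The labels name no vehicle for the untreated cells and do not say that the libraries of a group came from separate cultures. The p-values therefore measure only the spread between these libraries, which may be technical. In bulk RNA, fewer cells of a kind and less RNA per cell cannot be told apart.

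Glycolysis splits glucose into pyruvate in the cytosol and yields ATP and NADH without oxygen. Hexokinase, phosphofructokinase and pyruvate kinase catalyse its irreversible steps, and lactate dehydrogenase returns NAD+ by turning pyruvate into lactate. Pyruvate that enters the mitochondrion is turned into acetyl-CoA by the pyruvate dehydrogenase complex, which pyruvate dehydrogenase kinases switch off. Cartilage cells live with little oxygen and depend largely on glycolysis, and many of these genes are known targets of the hypoxia-inducible factor HIF-1.

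Counted fragments per library ran from 16911257 to 26270686. Mitochondrially encoded genes took 26.04% of all counts in untreated replicate 1, 12.9% in untreated replicate 2, 13.5% in Antcin K replicate 1 and 19.3% in Antcin K replicate 2. Of the 10 cartilage markers examined, COL2A1 (type II collagen) had 0 counts in every library and ACAN (aggrecan) 0 to 4, while SOX9, the transcription factor of the cartilage lineage, had 112 to 563. The 4 mesenchymal markers, of which VIM held most counts, summed to 5474 CPM in untreated replicate 1 and to 2359 to 3485 CPM in the other libraries. Untreated replicate 1 also had the highest sum of the cartilage markers, at 30.0 CPM against 9.54 to 15.6. All 4 mesenchymal markers had lower means after Antcin K (median log2 fold change -0.96). Of these, 3 were lower without overlap of the groups, against 23.3% of all tested genes. Means were also lower for 4 of 5 tested cartilage markers (median -0.91) and 5 of 6 tested markers of other cell types (median -0.15). In each of those lists 2 were lower without overlap, while 1 cartilage marker and 0 markers of other cell types were higher without overlap. The 13 markers of other cell types summed to 44.5 to 76.0 CPM, with PTPRC and HBB at 0 counts throughout, HBA1 at 3 to 16, CD3E at 37 to 140, PECAM1 at 92 to 147 and DES at 355 to 607. Untreated replicate 2 had the highest sum, and there MYH2, a skeletal muscle myosin gene, had 17.4 CPM against 0.54 to 1.28 in the other 3 libraries, while the muscle genes CKM (201 to 339 counts) and MYH7 (6 to 12 counts) did not stand apart in it. The part of these differences in the results was not tested.

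Between Antcin K and untreated cells, 0 of the 33 genes passed the test at an adjusted p under 0.05 (edgeR quasi-likelihood test, Benjamini-Hochberg over all 14717 genes), as did 0% of all tested genes. At an unadjusted p under 0.05 there were 3 of 33 (9.09%), against 12.4% of all tested genes. These were PFKFB4 and SLC16A3, with lower means after Antcin K, and PDK3, with a higher one. DESeq2 called 0.514% of the genes it could adjust and 0 of the 33. The edgeR test on unfiltered counts called 0.723% of genes and 0 of the 33, and the test with a block for the replicate number 0.177% of genes and 0 of the 33. Log2 fold changes of the 33 ran from -0.78 to 0.61 with a median of 0.07, beside a median of -0.05 over all tested genes. A fold change above 0 was found for 19 of the 33 (57.6%), against 46.2% of all tested genes. In 18 of the 33 the levels of the groups did not overlap (54.5%, against 45.8% of all tested genes). Of these, 11 were higher after Antcin K (33.3%, against 22.6%) and 7 lower (21.2%, against 23.3%). The smallest adjusted p among the 33 was 0.366, for PFKFB4 (edgeR). The sign of the fold change depended on the scaling, test or library set for ENO1, GAPDH, GPI, PC, PDHB, PFKP, SLC16A1, SLC2A1 and TPI1, whose values below give no direction.

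**Figure D1:**
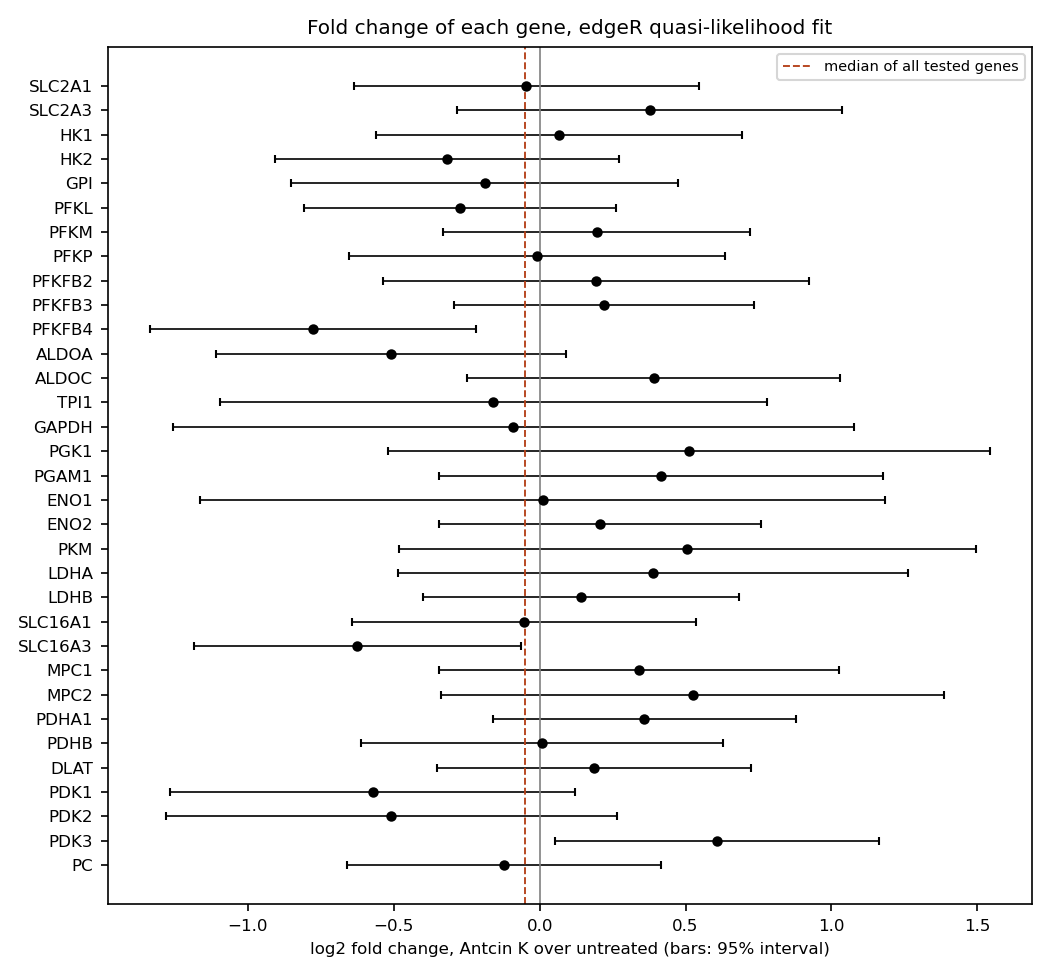
Log2 fold change of each of the 33 genes, Antcin K over untreated, in pathway order, with 95% intervals from the edgeR fit to 2 libraries a group. The intervals of PFKFB4, SLC16A3 and PDK3 leave out 0, while those of PGK1, PKM, ENO1 and GAPDH are the widest.

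On the FPKM scale, which allows for gene length, the levels ran from 0.32 for PDK1 in Antcin K replicate 2 to 12748 for GAPDH in untreated replicate 2. GAPDH was the second most abundant nuclear transcript in each library, and ENO1 ranked between 3 and 6. At the low end stood PFKFB2 and PDK1, with ranks between 10988 and 12809 among nuclear genes. The 33 genes together took 5.92% and 8.34% of all counts on nuclear genes in untreated cells, against 7.99% and 6.95% in treated cells. GAPDH and ENO1 alone made up 68.2% to 74.6% of these. Untreated replicate 1 had the lowest share and untreated replicate 2 the highest, so both Antcin K libraries lay between the untreated ones.

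**Figure D2:**
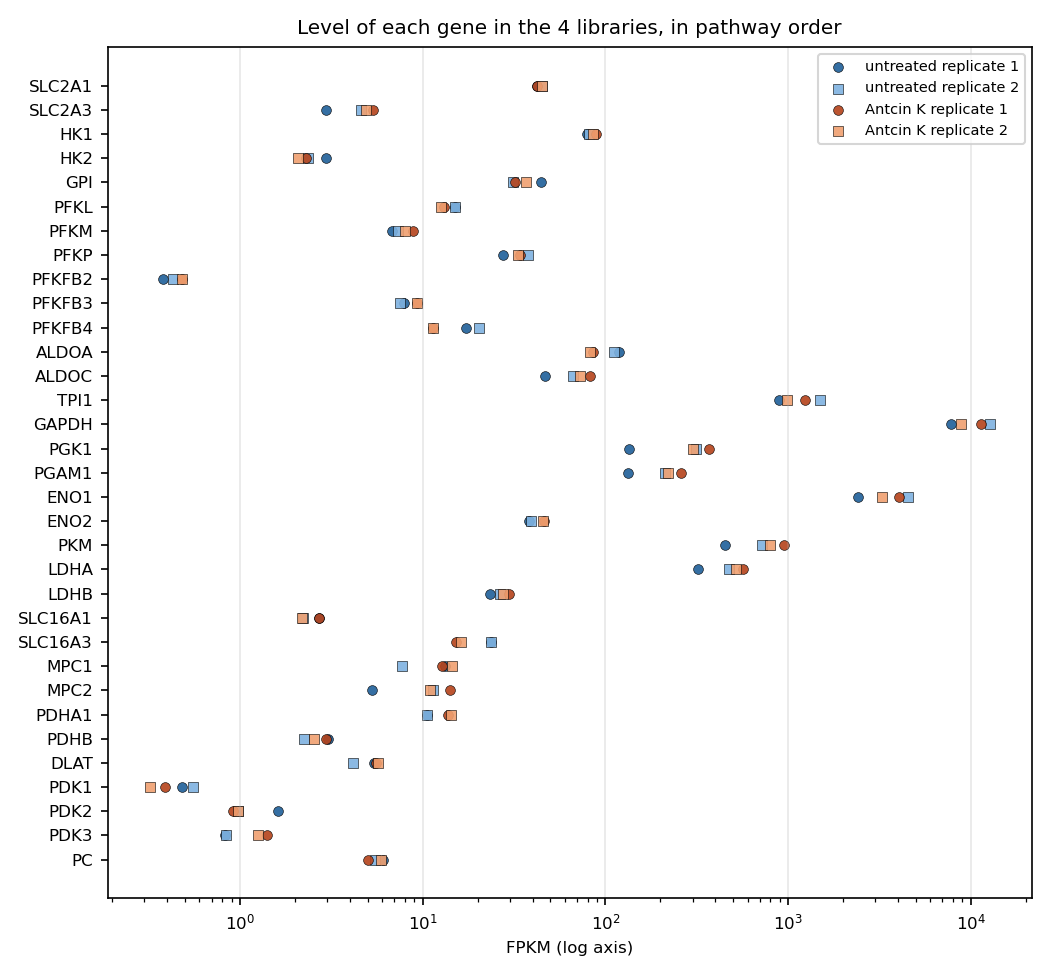
FPKM of each gene in the 4 libraries on a log axis, in pathway order, with untreated libraries in blue and Antcin K libraries in red and orange. The PFKFB4, SLC16A3, ALDOA and PDK3 groups stand apart, whereas the untreated libraries of PGK1, ENO1 and MPC2 lie farther from each other than the Antcin K libraries do.

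Levels below are CPM, counts scaled to the TMM-adjusted library size, unless FPKM is named, and treated cells are those given Antcin K. Glucose enters through the carriers GLUT1 and GLUT3. SLC2A1, which encodes GLUT1, stood at 277 and 312 CPM in untreated and at 268 and 302 CPM in treated cells. The groups overlapped, with a log2 fold change of -0.05 with a 95% interval of -0.64 to 0.55. SLC2A3, which encodes GLUT3, the carrier of high affinity known from neurons, stood at 17.8 and 29.3 CPM in untreated and at 31.1 and 29.9 CPM in treated cells. The library that stood apart was untreated replicate 1. The log2 fold change of SLC2A3 was 0.38 (standard error 0.29), with 0.06 when that library was left out and 0.79 when untreated replicate 2 was.

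Hexokinase traps glucose in the cell by phosphorylation. HK1, the widely expressed form, stood at 496 and 534 CPM in untreated and at 533 and 546 CPM in treated cells, a log2 fold change of 0.07 with an interval of -0.56 to 0.69. HK2, the inducible form common in tumours, was far lower, at 17.2 and 14.6 CPM in untreated and at 13.1 and 12.5 CPM in treated cells. Both Antcin K libraries lay below both untreated ones for HK2, and its log2 fold change of -0.32 had an interval of -0.91 to 0.27. On the FPKM scale HK1 made up 96.4% to 97.6% of the hexokinase pair in all 4 libraries. GPI, which interconverts glucose 6-phosphate and fructose 6-phosphate, had overlapping groups, at 470 and 350 CPM in untreated and at 326 and 394 CPM in treated cells.

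Phosphofructokinase commits sugar to glycolysis, and its subunits are known as liver (PFKL), muscle (PFKM) and platelet (PFKP) types. PFKP was the most abundant per length, with 55.7% to 62.7% of the summed FPKM of the 3 genes. PFKL stood at 133 and 141 CPM in untreated and at 112 and 114 CPM in treated cells, a log2 fold change of -0.27 (standard error 0.23). PFKM had a log2 fold change of 0.20 and PFKP one of -0.01. The groups did not overlap for PFKL and PFKM, and overlapped for PFKP, whose untreated libraries lay at 211 and 307 CPM around both treated ones.

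The PFKFB enzymes make and degrade fructose 2,6-bisphosphate, the strongest activator of phosphofructokinase. PFKFB4 (chromosome 3, 48517684 to 48562015, minus strand, hg38) stood at 104 and 131 CPM in untreated and at 66.8 and 69.97 CPM in treated cells, or 117 ± 19.0 against 68.4 ± 2.25 CPM (mean ± SD, n = 2 per group). Both treated libraries lay below both untreated ones. On the log2 scale the difference was -0.78 (standard error 0.25, interval -1.34 to -0.22), a level 1.71-fold lower after Antcin K (edgeR, adjusted p = 0.366). PFKFB3, whose enzyme strongly favours synthesis of the activator, differed in the other direction, at 47.8 and 48.4 CPM in untreated and at 54.2 and 57.8 CPM in treated cells, a log2 fold change of 0.22 (interval -0.29 to 0.73). PFKFB2, known from heart, stood at 3.80 and 4.59 CPM in untreated and at 4.68 and 4.90 CPM in treated cells. As a share of the summed FPKM of the 3 genes, PFKFB4 held 67.5% and 71.9% untreated and 53.9% and 53.5% after Antcin K, while PFKFB3 held 31.0% and 26.6% untreated and 43.8% and 44.2% after Antcin K. A share within a library does not depend on how libraries are scaled.

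Aldolase splits fructose 1,6-bisphosphate into triose phosphates. ALDOA, the form of muscle and most other tissues (chromosome 16, 30064164 to 30070457, plus strand), stood at 447 and 451 CPM in untreated and at 313 and 318 CPM in treated cells. Each pair agreed closely and the groups did not overlap, with a log2 fold change of -0.51, a standard error of 0.26 and an interval of -1.11 to 0.09 (edgeR, adjusted p = 0.455). ALDOC, the form known from brain, differed in the other direction, at 121 and 182 CPM in untreated and at 205 and 192 CPM in treated cells. Its log2 fold change was 0.39 (interval -0.25 to 1.03), and it was 0.13 without untreated replicate 1 and 0.72 without untreated replicate 2. ALDOA held 71.6% and 62.9% of the summed aldolase FPKM untreated and 51.0% and 53.1% after Antcin K. ALDOA overlaps ENSG00000285043 on the same strand, which holds 362 counts against 32018 for ALDOA over the 4 libraries. The part of this overlap in the level and share of ALDOA was not tested.

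TPI1, which interconverts the triose phosphates, and the lower glycolysis genes other than ENO2 were, with LDHA, the most abundant per length, and their untreated libraries disagreed. GAPDH, the dehydrogenase that makes NADH, stood at 18525 and 32082 CPM in untreated and at 26155 and 21370 CPM in treated cells. ENO1, the main enolase, stood at 12520 and 24797 CPM in untreated and at 20284 and 17291 CPM in treated cells. TPI1 stood at 2376 and 4238 CPM in untreated and at 3222 and 2701 CPM in treated cells. For these 3 genes the treated libraries lay between the untreated ones, and the log2 fold changes were -0.09, 0.01 and -0.16. PGK1, which makes the first ATP of the pathway, stood at 723 and 1786 CPM in untreated and at 1925 and 1648 CPM in treated cells. PKM, the pyruvate kinase of most tissues, stood at 3832 and 6522 CPM in untreated and at 7844 and 6859 CPM in treated cells. PGAM1, the phosphoglycerate mutase, stood at 333 and 564 CPM in untreated and at 629 and 567 CPM in treated cells. Here the odd library was untreated replicate 1, which lay below the other 3. The log2 fold changes were 0.51 for PGK1 (interval -0.52 to 1.54), 0.51 for PKM (-0.48 to 1.49) and 0.42 for PGAM1 (-0.34 to 1.18). ENO2, the enolase known from neurons, was steadier, at 161 and 175 CPM in untreated and at 190 and 198 CPM in treated cells.

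The 7 members with the highest mean FPKM were GAPDH, ENO1, TPI1, PKM, LDHA, PGK1 and PGAM1, and each had its lowest CPM in untreated replicate 1. Over all 33 genes this library was the lowest for 19 (57.6%), against 33% of all tested genes. Between the untreated libraries these 7 genes differed by 0.66 to 1.31 on the log2 scale, with a median of 0.79, while the median was 0.25 for the other 26 genes and 0.48 over all tested genes. Untreated replicate 1 also had the highest mitochondrial share and the highest sums of mesenchymal and cartilage markers. GAPDH, ENO1 and TPI1 stood in exactly the reverse order of that share across the 4 libraries, which makes 3 of the 33 genes (9.09%), against 8.47% of all tested genes. The part of the mitochondrial share and of the markers in these levels was not tested. Without untreated replicate 1 the log2 fold changes were -0.43 for GAPDH, 0.0061 for PGK1, 0.18 for PKM and 0.09 for PGAM1. Without untreated replicate 2 they were 0.37, 1.32, 0.95 and 0.86.

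**Figure D3:**
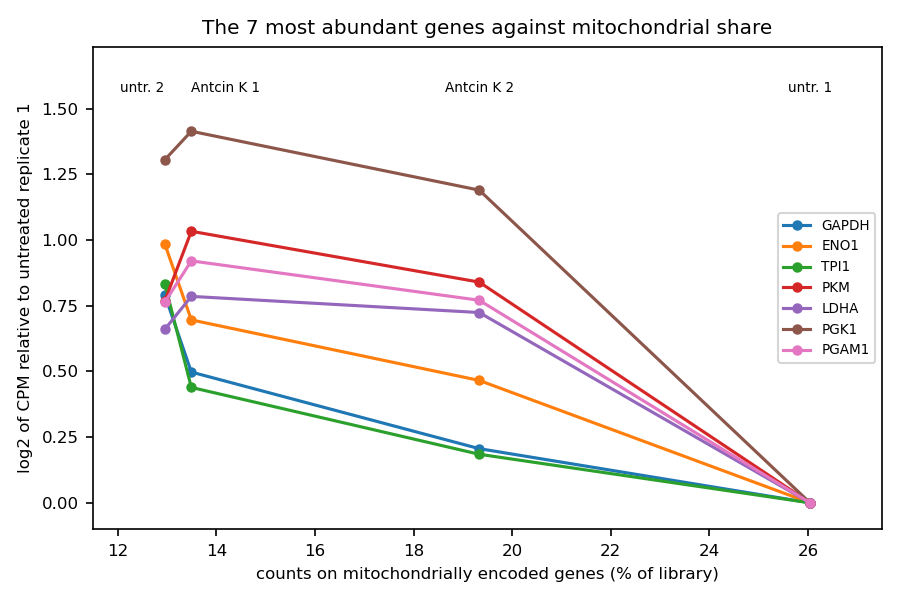
CPM of the 7 most abundant genes, as log2 relative to untreated replicate 1, against the share of each library's counts on mitochondrially encoded genes. The lines join the 4 libraries in order of that share, and all 7 genes are lowest in untreated replicate 1, the library at 26.04%.

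Lactate dehydrogenase is a tetramer of LDHA and LDHB subunits, of which LDHA is known to favour lactate formation. LDHA stood at 1912 and 3022 CPM in untreated and at 3297 and 3159 CPM in treated cells, a log2 fold change of 0.39 (interval -0.49 to 1.26) that was 0.10 without untreated replicate 1 and 0.77 without untreated replicate 2. LDHB stood at 69.2 and 83.1 CPM in untreated and at 85.3 and 82.6 CPM in treated cells, so its groups overlapped. LDHA held 93.2% and 94.7% of the pair's summed FPKM untreated and 95.02% and 94.97% after Antcin K. Lactate leaves the cell through monocarboxylate carriers. SLC16A3, which encodes MCT4, the exporter of highly glycolytic cells (chromosome 17, 82217934 to 82261129, plus strand), stood at 215 and 229 CPM in untreated and at 135 and 152 CPM in treated cells, or 222 ± 10.1 against 144 ± 11.8 CPM (mean ± SD, n = 2 per group). The groups were well apart, with a log2 fold change of -0.63, a standard error of 0.25 and an interval of -1.19 to -0.06 (edgeR, adjusted p = 0.385), a level 1.54-fold lower after Antcin K. It overlaps CSNK1D on the opposite strand, which holds 10932 counts against 15265 for SLC16A3 over the 4 libraries. SLC16A1, which encodes MCT1, stood at 16.9 and 14.7 CPM in untreated and at 16.4 and 13.98 CPM in treated cells. SLC16A3 held 89.7% and 91.4% of the summed FPKM of the pair untreated and 85.0% and 88.2% after Antcin K.

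Pyruvate enters the mitochondrion through a carrier built of MPC1 and MPC2. MPC1 stood at 20.2 and 12.5 CPM in untreated and at 18.9 and 22.6 CPM in treated cells. MPC2 stood at 13.7 and 31.5 CPM in untreated and at 35.6 and 29.1 CPM in treated cells. The untreated libraries thus disagreed on both subunits and in opposite directions, and MPC1 made up 71.6% of the pair's FPKM in untreated replicate 1 and 40.4% in untreated replicate 2. The log2 fold change of MPC2 was 0.52, but 0.05 without untreated replicate 1 and 1.25 without untreated replicate 2.

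The pyruvate dehydrogenase complex was represented by 3 genes, and none passed the test. PDHA1, the alpha subunit of its E1 enzyme, stood at 52.0 and 54.8 CPM in untreated and at 65.5 and 71.3 CPM in treated cells, a log2 fold change of 0.36 (interval -0.16 to 0.88) without overlap of the groups. PDHB, the beta subunit of E1, had a log2 fold change of 0.01, and DLAT, the E2 acetyltransferase, one of 0.19, both with overlapping groups. The kinases that inactivate E1 differed from each other. PDK3 (chromosome X, 24465244 to 24550466, plus strand) stood at 14.3 and 15.5 CPM in untreated and at 23.3 and 22.05 CPM in treated cells, or 14.9 ± 0.789 against 22.7 ± 0.916 CPM (mean ± SD, n = 2 per group). Its treated libraries were both above the untreated ones, with a log2 fold change of 0.61, a standard error of 0.24 and an interval of 0.05 to 1.16 (edgeR, adjusted p = 0.387). PDK1, a known target of HIF-1, stood at 7.08 and 8.51 CPM in untreated and at 5.60 and 4.84 CPM in treated cells. Its log2 fold change was -0.57 (interval -1.27 to 0.12). PDK2, the broadly expressed kinase, stood at 8.77 and 5.60 CPM in untreated and at 4.77 and 5.38 CPM in treated cells, a log2 fold change of -0.51 that was -0.14 without untreated replicate 1 and -0.78 without untreated replicate 2. PDK3 held 28.3% and 35.6% of the kinases' summed FPKM untreated and 51.9% and 49.2% after Antcin K. On this scale it was below PDK2 in both untreated libraries and above it in both treated ones. Both genes were low, at 0.83 to 1.4 FPKM for PDK3 and 0.91 to 1.62 for PDK2. In CPM, which do not allow for exonic length (17456 bases for PDK3, 5471 for PDK2), PDK3 was above PDK2 in every library. PC, pyruvate carboxylase, which makes oxaloacetate, had overlapping groups and a log2 fold change of -0.12.

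Of the 33 genes, 25 belong to 11 families of 2 or 3 isozymes, carriers or subunits, and each has a share of its family's summed FPKM. A family here holds only genes among the 33. HKDC1 is thus outside the hexokinases, and the sugar carrier gene SLC2A6 (19.38 to 27.55 FPKM) is outside the glucose carriers. The shares of the enolases, of the pyruvate carrier subunits and of PFKP overlapped between the groups. The largest differences in mean share were 18.6 percentage points for PDK3, -15.9 for PFKFB4 and -15.2 for ALDOA. With 2 libraries against 2, an exact two-sided permutation test cannot go below p = 0.333, so no share could pass. Shares within a family sum to 100% and are not independent of each other.

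**Figure D4:**
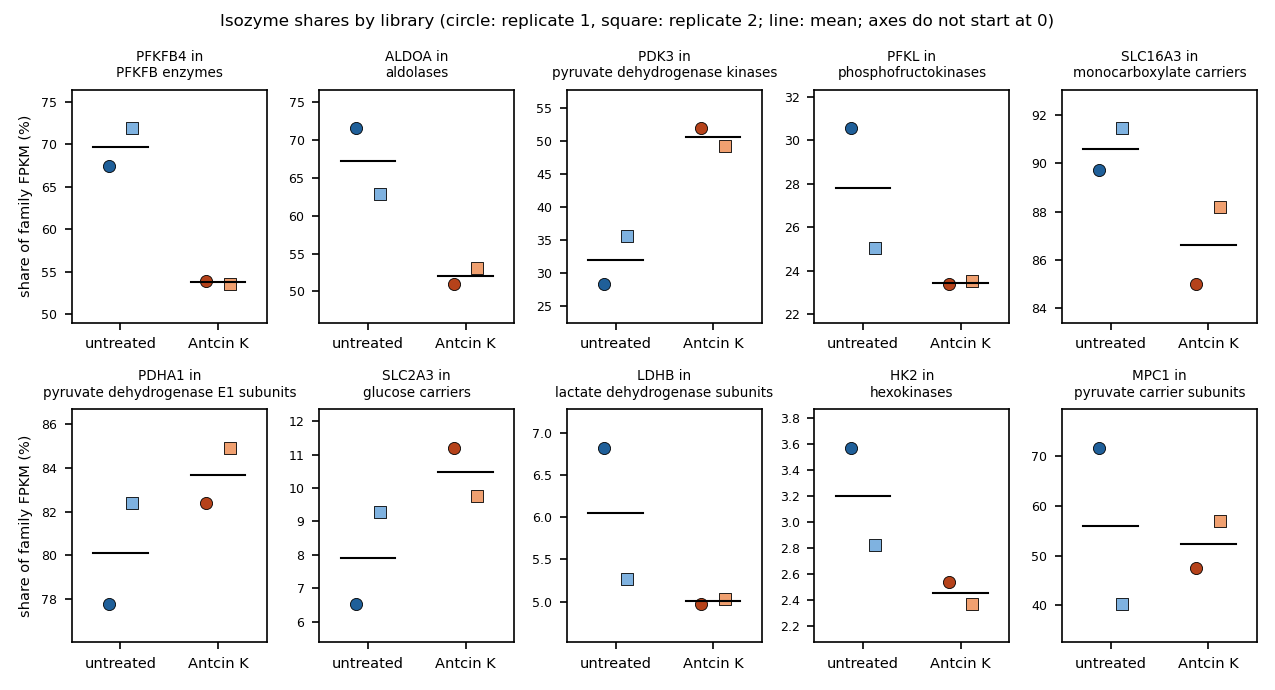
Share of 1 gene in the summed FPKM of its family in each library, for 10 shares, with circles for replicate 1, squares for replicate 2 and lines for the group means. PFKFB4, ALDOA and PDK3 show the widest gaps between groups, and MPC1 shows a gap between the untreated libraries.

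HIF-1 binds a short DNA element whose core is ACGTG, so the 250 bases before each annotated start were searched for these letters on both strands (ACGTG or CACGT, which overlap where the letters read CACGTG). RefSeq promoter sequences (GRCh38.p14) were matched for 30 of the 33 genes, with 62 windows. The core was found in at least 1 window for 19 of the 30 genes (63.3%), against 28.7% of the 10687 tested genes matched, and in 35.5% of the windows against 22.2%. The 10687 genes had 15555 windows, fewer per gene than the 30 genes had, so the shares of genes also reflect the number of windows searched. The windows of the 30 genes were also richer in G and C, at a median of 67.8% against 64.4%. Of the 19 genes with the core, 9 had higher means in treated cells and 10 lower ones (median log2 fold change -0.01), and of the 11 without it 8 had higher and 3 lower ones (median 0.14). PFKFB4 had no match in its single window, which says nothing of HIF-1 at this gene. The stretches around the core are shown for SLC16A3 and ALDOA, whose means were lower after Antcin K, and for PFKFB3 and PGK1, whose means were higher, with each core in capitals and the gene's own strand from 5′ to 3′.
SLC16A3, chr17:82228949-82229003, plus strand: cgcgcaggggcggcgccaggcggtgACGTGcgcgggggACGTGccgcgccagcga
ALDOA, chr16:30065537-30065591, plus strand: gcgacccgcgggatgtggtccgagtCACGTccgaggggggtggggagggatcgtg
PFKFB3, chr10:6202799-6202853, plus strand: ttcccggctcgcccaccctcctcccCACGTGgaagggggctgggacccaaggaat
PGK1, chrX:78104021-78104075, plus strand: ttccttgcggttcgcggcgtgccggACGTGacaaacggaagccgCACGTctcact
The SLC16A3 and PGK1 stretches each hold the core at 2 places, and the PFKFB3 stretch holds it on both strands at the same place. Genes with the core in these windows thus lay on both sides of 0, and a match is a description of letters, not of binding.

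Neighbouring pathways were read from the same fit, and 0 of their genes passed over all tested genes. Of 30 other glycolytic isoforms and carriers, 16 were tested, 6 with a higher and 10 with a lower mean (median log2 fold change -0.09). Among these ADPGK, a glucokinase that uses ADP, stood at 12.04 and 13.8 CPM in untreated and at 24.97 and 24.6 CPM in treated cells. Its log2 fold change was 0.94 (edgeR, adjusted p = 0.366). EMB, which encodes embigin, a partner protein of monocarboxylate carriers, stood at 12.4 and 6.55 CPM in untreated and at 4.03 and 3.70 CPM in treated cells (-1.29). Of 9 tested regulators and partners of the pyruvate dehydrogenase complex, 4 had a higher mean (median -0.03). Of 12 tested genes of gluconeogenesis and glycogen, 10 had a lower mean (median -0.35). These include SLC37A4, the glucose 6-phosphate carrier of the endoplasmic reticulum, at 33.4 and 31.2 CPM in untreated and at 19.4 and 19.8 CPM in treated cells. They also include UGP2, which makes UDP-glucose for glycogen, with a log2 fold change of -0.82. Of 8 tested pentose phosphate genes, 3 had a higher mean (median -0.01), and PGLS, the lactonase of that pathway, had a log2 fold change of -0.66. Of 22 tested genes of the tricarboxylic acid cycle list, 14 had a higher mean (median 0.19), among them ACO1, the cytosolic aconitase (0.60). Of the subunits of succinyl-CoA ligase, SUCLG1 had a log2 fold change of 0.84 and SUCLG2 one of -0.69. In that list of 22 genes 9 were higher and 7 lower without overlap of the groups, against 22.6% and 23.3% of all tested genes. In the gluconeogenesis and glycogen list of 12 tested genes, 1 was higher and 6 were lower without overlap. Of 9 tested genes of the glycerol, serine and hexosamine branches, 4 had a higher mean (median -0.04).

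Among 14 tested hypoxia targets outside glycolysis, 6 had a higher and 8 a lower mean (median log2 fold change -0.07). P4HA2, a collagen prolyl hydroxylase subunit, stood at 29.2 and 33.7 CPM in untreated and at 55.2 and 55.6 CPM in treated cells, while PLOD2, a collagen lysyl hydroxylase, had a log2 fold change of -0.96. Among 11 tested regulators, 8 had a higher and 3 a lower mean (median log2 fold change 0.06). HIF1A, the oxygen-regulated subunit of HIF-1, stood at 63.6 and 37.4 CPM in untreated and at 28.3 and 31.6 CPM in treated cells (log2 fold change -0.76). Its partner ARNT stood at 28.6 and 33.8 CPM in untreated and at 49.0 and 48.5 CPM in treated cells (0.64). TXNIP, an inhibitor of glucose uptake whose gene responds to glucose, stood at 14.9 and 17.0 CPM in untreated and at 37.7 and 31.9 CPM in treated cells (1.13). For these 5 genes adjusted p lay between 0.366 and 0.384 (edgeR).

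Leaving out an untreated library changed which members were called, and those counts rest on 1 control each. Without untreated replicate 1, edgeR called 3 of the 33 genes (9.09%), PFKFB4, SLC16A3 and ALDOA, against 9.38% of all tested genes. Without untreated replicate 2 it called 12 (36.4%), against 25.2%. These were the same 3 together with PDK2, all lower after Antcin K, and ALDOC, LDHA, MPC2, PDK3, PGAM1, PGK1, PKM and SLC2A3, all higher. Without Antcin K replicate 1 or 2 it called 0 of the 33, against 0.0519% and 0.019%. Where an untreated library was left out, the remaining one was assumed to vary like the Antcin K pair, whose libraries lay closer together than the untreated ones (median difference 0.23 against 0.48 on the log2 scale over all tested genes). With the replicate numbers crossed as a block, PFKFB4 and MPC2 were called, 2 of 33 (6.06%), against 9.72%. No label pairs the libraries in this way, and the crossing was added after the data were seen. These calls therefore give no support to a difference.

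Near-identical copies make some counts less certain. GAPDH has 65 named pseudogenes in the deposited table, which hold 5853 counts against 1987473 for GAPDH. TPI1 has 4, which hold 3498 counts against 253576. The handling of reads with several alignments is not given in the sources used here. MPC2 overlaps DCAF6 on the opposite strand (1752 counts against 2182) and PC overlaps LRFN4 (3719 against 3404). PKM counts join the isoforms PKM1 and PKM2, which a table per gene cannot tell apart.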

How the data were processed

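The 4 JJ012 libraries were read from both ends on an Illumina NovaSeq instrument, per the labels' protocols. The submitters' processing notes name the build hg38, HTSeq 0.6.1, cutadapt 1.9.1 and HISAT2 2.2.1. Of the annotation release, strand setting and multi-mapping rule nothing is stated in those notes or the labels. The deposited table holds raw counts per gene and library, and FPKM, which the authors computed per exonic length, per the file headers. Groups follow the treatment label and replicate numbers the titles.

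Counts of genes passing filterByExpr (minimum count 10) received TMM scaling and a robust quasi-likelihood fit in edgeR 4.0.16 (R 4.3.3) with 1 term, the group. Benjamini-Hochberg adjustment ran over all tested genes, and calls were made under 0.05. Alternatives were DESeq2 1.42.0, limma 3.58.1 on voom weights or log2(FPKM + 1) and log2(FPKM + 0.1), other scalings and filters, a replicate block, leaving out mitochondrial genes and leaving out each library. Isozyme shares use deposited FPKM. On data simulated for this comparison, with 200 genes changed and 14362 genes tested, edgeR recovered 13% of genes changed by 2-fold, 71.4% by 4-fold and 94.6% by 8-fold. The simulation drew each gene independently and with the same spread in both groups, so these rates may be too high for the real libraries. In the real data 0 genes were called, while log2 fold changes ran from -6.75 to 3.80. The replicates of a group differed by more than counting noise (chi-square per gene 166 untreated, 34.8 Antcin K).

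The members and the gene lists were chosen with earlier results of these data known. Values in every library are given for the 14 members with the lowest p and for 8 best known ones whatever their p, and those of other members were added after they were seen. From each other list the 3 genes with the lowest p could be named. HKDC1 and SLC2A6 were named beyond this rule, for their levels, after they were seen.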

Additional observations from a re-analysis of the deposited data

How the results depend on the processing

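The number of genes called over the whole table moved from 0 to 208 without the count filter (28764 genes tested), 58 with DESeq2, which gave no adjusted p to 3424 genes, 26 under a block for the replicate number, and from 3 to 3971 when 1 library was left out. The block called 0 of the 33 glycolysis and pyruvate genes. Leaving out 1 library called 0 to 12 of them and gave a median log2 fold change of 0.044 to 0.28. Same-numbered libraries deviated in opposite directions (Pearson r = -0.32 across genes, which are not independent), and the crossed block, added after the data were seen, called 1430 genes and 2 of the 33. The other scalings, limma settings, a minimum count of 50 and leaving out mitochondrial genes called 0 of all genes. The median over all tested genes ran from -0.09 to 0.05 across the 17 settings.

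Of the 33 genes, 24 kept the sign of their fold change under every setting that gave them a value, while PDK1 and PFKFB2 fell below the FPKM minimum. GAPDH turned to 0.0061 in the 3 fits on FPKM and ran from -0.43 to 0.37 with 1 library left out. SLC2A1 turned to 0.0046 with library totals only, to 0.0046 on log2(FPKM + 1) with and without the minimum and to 0.0047 on log2(FPKM + 0.1), and ran from -0.13 to 0.067 with 1 library left out. PFKFB4 ran from -0.93 to -0.59 and SLC16A3 from -0.67 to -0.51 over all settings. On counts in place of FPKM, the difference in share was 1.23 points for PFKFB2 and -10.3 for PDK1, since counts weight long genes more. With 1 library left out, the difference for PFKFB4 ran from -18.1 to -13.7 points, for ALDOA from -19.5 to -10.9 and for PDK3 from 14.9 to 22.2, while that for MPC1 ran from -19.3 to 11.9. The causes of the other changes were not tested. With 2 libraries a group, differences below 2-fold were mostly beyond the test's reach, and larger ones may also have been missed.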
